A study of Rattus norvegicus with 9 samples.

Results

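Gad1, Gad2, Pvalb, Sst, Npy and Vip were examined in the ageing rat cerebral cortex. These 6 genes were taken by their Ensembl identifiers, by a rule that uses no measured value, and all 6 were present among the 29516 identifiers counted. Whole RNA was sequenced on the SOLiD platform from the cortex of male BN rats (substrain BN/SsNOlaHSD), fed ad libitum, aged 6, 12 or 28 months. Each library held the pooled RNA of 2 rats, ribosomal RNA had been removed, and 3 libraries were labelled with each age. Every row of 6 months sample 2 equalled that of 12 months sample 3, so the 9 files hold 8 distinct libraries.

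The age of this shared library is not settled by its labels. Comparisons between ages were therefore made on the 7 libraries of settled age, which are samples 1 and 3 of 6 months, samples 1 and 2 of 12 months and all of 28 months. For the 6 genes, the log2FC obtained with the shared library placed at both ages, as labelled, is given as well. At 6 vs. 12 months this puts the same counts in both groups, so group difference and replicate spread are no longer separate. There the as-labelled fit is no independent check.

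Gad1 (ENSRNOG00000000007) and Gad2 (ENSRNOG00000018200) encode the 2 forms of glutamate decarboxylase, GAD67 and GAD65, which make the inhibitory transmitter GABA from glutamate. GAD67 is found through the whole neuron and supplies most of its basal GABA, whereas GAD65 is concentrated at synaptic terminals. In the cortex GABA is made almost only by local interneurons, and these fall into classes with little overlap. Pvalb (ENSRNOG00000006471) encodes parvalbumin, a calcium-binding protein of fast-spiking basket and chandelier cells. Sst (ENSRNOG00000001837) encodes somatostatin, a peptide of cells that contact distal dendrites. Vip (ENSRNOG00000018808) encodes vasoactive intestinal peptide, a marker of interneurons that mainly inhibit other interneurons. Npy (ENSRNOG00000009768) encodes neuropeptide Y, which is shared by neurogliaform cells and part of the somatostatin cells. In RNA from whole cortex, fewer cells of a class and less RNA per cell cannot be told apart.

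Sst and Vip are textbook targets of the factor CREB, which binds the cyclic AMP response element, and for this reason the bases around these letters are shown, at the annotated start of Sst and upstream of that of Vip. The sequences are RefSeq's for assembly GRCr8, plus strand, 5′ to 3′. Capitals mark TGACGTCA in Sst and its core TGACG in Vip.
Sst, chr11:90461537-90461566: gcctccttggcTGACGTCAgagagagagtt
Vip, chr1:44470372-44470401: gatcaccactgTGACGtctttcgaggagcc
All 6 genes had a RefSeq window of 300 bases, from 250 before to 50 after the annotated start. On either strand TGACGTCA was found in 1 of the 6 windows, that of Sst, and in 1.83% of the 33469 windows of the table. The core TGACG, which TGACGTCA contains, was found in 3 of the 6, those of Pvalb, Sst and Vip, and in 21.2% of all windows. TATAAA was found in 2 of the 6, those of Gad1 and Vip, and in 14.2% of all windows. The element in Sst began 2 bases after the annotated start and the core in Vip began 97 bases before it. The counts bear on RNA level alone, and use of these elements was not measured.

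Gene reads numbered 6513376 to 9196951 in a library, and a single identifier held 44.0 to 52.4% of them. Reads on no annotated gene were 59.6% of the mapped reads in the shared library and 60.0% in 28 months sample 2, against 47.5 to 57.1% in the other libraries. Among libraries of settled age, the chi-square of a same-age pair divided by its degrees of freedom was least at 12 months, 8.03, and greatest between 28 months samples 1 and 2, 39.1. Pairs of different ages could be closer than most same-age pairs, with 13.1 for 12 months sample 1 and 28 months sample 3. For the shared library the value was 32.4 and 30.6 with the 6 months libraries and 25.1 and 23.6 with those at 12 months. With the 28 months libraries it was 13.2 to 31.7, and the age of the shared library was not tested. Levels are given as normalized counts, that is CPM, the count scaled to a fixed library total after TMM. Lengths of the transcripts were not used, so levels are compared between libraries and not between genes, and ratios or shares of reads among genes compare libraries alone.

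The mRNA of GAD67 varied little between ages. Gad1 stood at 140 and 119 CPM in the libraries at 6 months, 112 and 133 CPM at 12 months, and 135, 139 and 146 CPM at 28 months. The 6 months and 12 months libraries overlapped, the 6 months and 28 months libraries overlapped, and the 28 months libraries all lay above those at 12 months. The shared library had the highest level, 179 CPM. The log2-transformed fold change (log2FC) with increasing age was −0.09 ± 0.16 (SE) at 6 vs. 12 months, 0.11 ± 0.16 at 6 vs. 28 months and 0.20 ± 0.16 at 12 vs. 28 months. The false discovery rates (FDR, Benjamini-Hochberg over all identifiers tested, edgeR quasi-likelihood test) were 0.853, 0.946 and 0.794. The 95% interval at 6 vs. 28 months reached from −0.25 to 0.46. As labelled, the 3 values were −0.05, −0.06 and −0.01.

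The mRNA of GAD65 was lower in both libraries at 12 months than in both at 6 months, but not beyond the FDR threshold of 0.05. Gad2 stood at 79.7 and 53.6 CPM at 6 months, 38.8 and 47.9 CPM at 12 months, and 45.4, 60.3 and 54.3 CPM at 28 months. The shared library had 49.97 CPM, within the range of the others. The log2FC at 6 vs. 12 months was −0.63 ± 0.21 (SE), with an edgeR FDR of 0.252 and an unadjusted p of 0.0158. It was −0.32 ± 0.20 at 6 vs. 28 months (edgeR FDR = 0.853) and 0.31 ± 0.18 at 12 vs. 28 months (edgeR FDR = 0.730). Much of the spread lay within 6 months, where sample 1 was 1.49 times sample 3. Without 6 months sample 3, the fall at 6 vs. 12 months was −0.89 with an edgeR FDR of 0.000112, in a fit of 1 library against 2 that called 5.65% of all identifiers. Without 6 months sample 1 it was −0.31 with an edgeR FDR of 0.502. As labelled, the log2FC of Gad2 was −0.43 ± 0.21, −0.20 ± 0.21 and 0.23 ± 0.17 at 6 vs. 12, 6 vs. 28 and 12 vs. 28 months.

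The ratio of Gad1 to Gad2 reads within a library needs no scaling between libraries. It was 1.76 and 2.22 in the 6 months libraries, 2.90 and 2.78 at 12 months, and 2.97, 2.31 and 2.68 at 28 months. Both 6 months libraries lay below all 5 libraries at 12 and 28 months, and the 12 months and 28 months libraries overlapped. The shared library had the highest ratio, 3.59, with a counting interval of 3.19 to 4.05. Placing it at 6 months as well moves the mean at that age from 1.99 to 2.52, and at 12 months from 2.84 to 3.09. This ratio is a description, with no test. The 95% counting intervals of 6 months sample 3, 1.99 to 2.49, and of 28 months sample 2, from 2.07 upwards, overlapped.

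Pvalb was the member that varied most between libraries. It stood at 12.7 and 15.1 CPM in the libraries at 6 months, 15.8 and 28.7 CPM at 12 months, and 53.5, 13.7 and 45.2 CPM at 28 months. The shared library had 63.8 CPM, 5.01 times the level of 6 months sample 1. Both libraries at 12 months lay above both at 6 months, while 28 months sample 2 lay among the 6 months libraries and below every other library of 28 months. Within 28 months the highest library was 3.91 times the lowest, from 433 and 99 reads.

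The log2FC of Pvalb was 0.67 ± 0.27 (SE) at 6 vs. 12 months (edgeR FDR = 0.322) and 1.43 ± 0.43 at 6 vs. 28 months (edgeR FDR = 0.489). It was 0.76 ± 0.42 at 12 vs. 28 months (edgeR FDR = 0.722). The largest of these was 2.69-fold, with a 95% interval from 1.39 to 5.19-fold and an unadjusted p of 0.00686 in the edgeR fit. With the shared library as labelled the log2FC was 0.31 ± 0.59, with an edgeR FDR over 0.999, and the interval ran from 0.499 to 3.08-fold. Whether Pvalb passed the threshold at 6 vs. 28 months turned on the test and on a single library. The edgeR exact test with tagwise dispersion gave an FDR of 0.00827, where it called 0.860% of all identifiers, and the quasi-likelihood test without the filter on low counts gave 0.00234, where it called 0.954%. Without 28 months sample 2 the log2FC was 1.83 with an edgeR FDR of 0.00145, where 0.572% of all identifiers were called. Without this library Pvalb also passed at 12 vs. 28 months, with a log2FC of 1.15 and an edgeR FDR of 0.0432, where 0.907% were called. At 6 vs. 12 months it passed without 12 months sample 1 (log2FC 1.03, edgeR FDR = 0.00606, 2.28% of identifiers called) and without 6 months sample 3 (log2FC 0.79, edgeR FDR = 0.0312, 5.65% called). Without 12 months sample 2 it was 0.18 with an edgeR FDR of 0.861. As labelled, Pvalb had a log2FC of 0.25 ± 0.65 at 6 vs. 12 months and 0.05 ± 0.48 at 12 vs. 28 months.

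**Figure D1:**
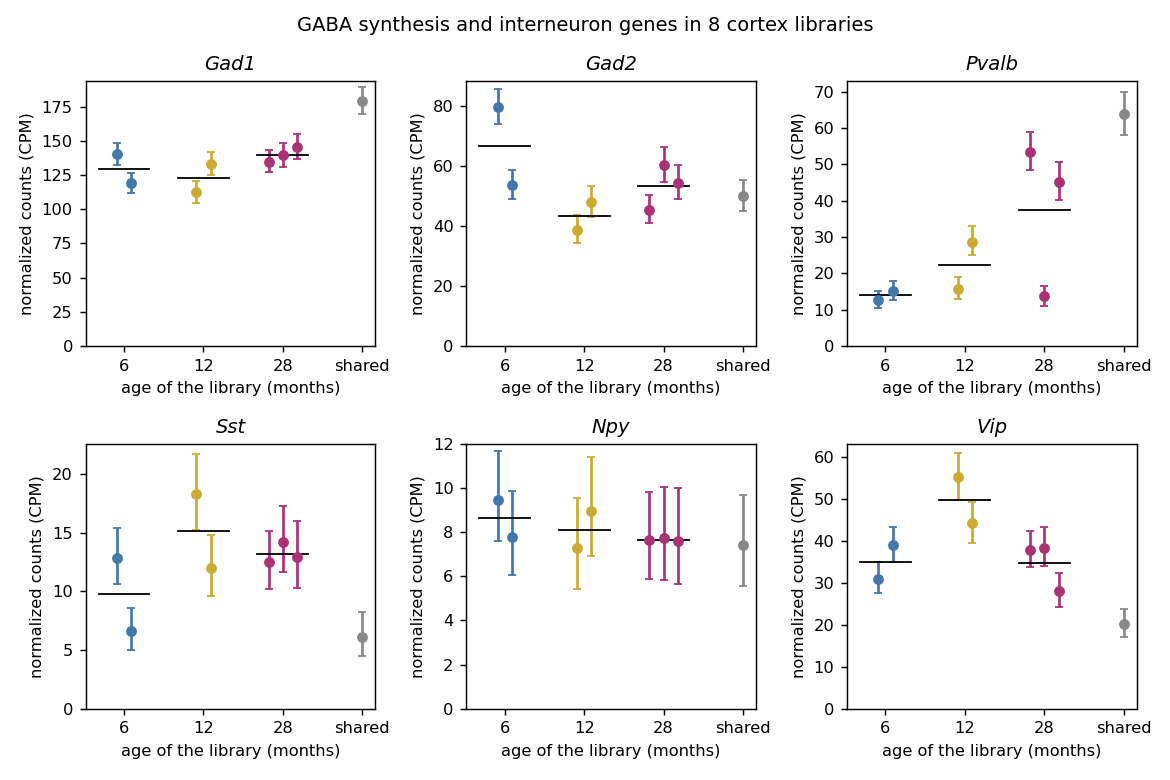
Normalized counts (CPM, vertical axis from 0) of each gene in each of the 8 distinct libraries, grouped by age in months. Points are libraries, bars are 95% Poisson intervals for counting error, and black lines are means of the libraries of settled age. Pvalb spans 12.7 to 63.8 CPM, whereas Npy lies between 7.27 and 9.48 CPM.

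Somatostatin mRNA was uneven within 6 and 12 months and even within 28 months. Sst stood at 12.9 and 6.64 CPM at 6 months, 18.3 and 12.0 CPM at 12 months, and 12.5, 14.2 and 12.9 CPM at 28 months. The shared library had the lowest level, 6.14 CPM from 44 reads, close to that of 6 months sample 3 from 58 reads. The libraries of all 3 ages overlapped. The log2FC was 0.62 ± 0.32 (SE) at 6 vs. 12 months (edgeR FDR = 0.460), 0.43 ± 0.27 at 6 vs. 28 months (edgeR FDR = 0.848) and −0.18 ± 0.22 at 12 vs. 28 months (edgeR FDR = 0.878). Without 6 months sample 1 the first of these was 1.18 with an edgeR FDR of 0.00293, in a fit that called 4.08% of all identifiers. Without 6 months sample 3 it was 0.22 (edgeR FDR = 0.762), and without 12 months sample 1 it was 0.27 (edgeR FDR = 0.883). As labelled, Sst had a log2FC of 0.49 ± 0.41 at 6 vs. 12 months and 0.62 ± 0.28 at 6 vs. 28 months, and the value at 12 vs. 28 months changed sign, to 0.13 ± 0.30.

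Over the 8 distinct libraries Npy was the steadiest of the 6 genes, with a highest level 1.30 times the lowest. Over the 7 libraries of settled age Gad1 was as steady, with this ratio at 1.30 for both genes. Npy stood at 9.48 and 7.79 CPM at 6 months, 7.27 and 8.94 CPM at 12 months, 7.66, 7.74 and 7.59 CPM at 28 months, and 7.40 CPM in the shared library. The 28 months libraries all lay just below those at 6 months, and the 12 months libraries overlapped with both ages. Each value rests on 50 to 87 reads, and the 95% counting intervals of the 8 libraries overlapped. The log2FC was −0.10 ± 0.23 (SE), −0.17 ± 0.22 and −0.07 ± 0.23 at 6 vs. 12, 6 vs. 28 and 12 vs. 28 months, with edgeR FDR values of 0.888, 0.932 and 0.962. The 95% interval at 6 vs. 28 months, from −0.65 to 0.31, excluded a rise of 1.24-fold or more but not a fall to 0.635 of the level. As labelled, the 3 values were −0.07, −0.10 and −0.03.

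Vip was higher at 12 months than at either other age, though not beyond the FDR threshold. It stood at 31.0 and 39.1 CPM at 6 months, 55.2 and 44.3 CPM at 12 months, and 37.9, 38.4 and 28.1 CPM at 28 months. Both 12 months libraries lay above all 5 libraries of 6 and 28 months, which overlapped. The shared library, which carries the 12 months label as well as the 6 months label, had the lowest level of all, 20.2 CPM. The log2FC was 0.50 ± 0.18 (SE) at 6 vs. 12 months (edgeR FDR = 0.286, unadjusted p = 0.0223) and −0.50 ± 0.19 at 12 vs. 28 months (edgeR FDR = 0.539, unadjusted p = 0.0190). It was −0.01 ± 0.20 at 6 vs. 28 months (edgeR FDR = 0.998). Without 6 months sample 3 the value at 6 vs. 12 months was 0.67 with an edgeR FDR of 0.0286, where 5.65% of all identifiers were called. Without 12 months sample 1 it was 0.32 (edgeR FDR = 0.747), and without 6 months sample 1 it was 0.35 (edgeR FDR = 0.432). As labelled, Vip had a log2FC of 0.40 ± 0.36 at 6 vs. 12 months, 0.21 ± 0.24 at 6 vs. 28 months and −0.19 ± 0.29 at 12 vs. 28 months.

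Across the 6 genes, 0 passed an FDR of 0.05 in any comparison by the edgeR quasi-likelihood test, against 1.20% of the 15966 identifiers tested at 6 vs. 12 months, 0.206% at 6 vs. 28 months and 0.120% at 12 vs. 28 months. DESeq2 also called 0 of the 6 in each, and the exact test called Pvalb alone, at 6 vs. 28 months. At an unadjusted p under 0.05 in edgeR there were 3 of the 6 at 6 vs. 12 months (Gad2, Pvalb and Vip), where 13.6% of all identifiers did so. There was 1 at 6 vs. 28 months (Pvalb), where 6.45% did, and 1 at 12 vs. 28 months (Vip), where 7.68% did. The libraries of the ages compared did not overlap for 3 of the 6 at 6 vs. 12 months, 1 at 6 vs. 28 months and 2 at 12 vs. 28 months, where 45.5, 21.9 and 24.6% of all identifiers did not overlap. A joint edgeR F test of any difference among the 3 ages gave FDR values of 0.396 for Pvalb, 0.474 for Vip, 0.496 for Gad2, 0.663 for Sst, 0.829 for Gad1 and 0.919 for Npy, and 0.694% of all identifiers passed. In this test 3 of the 6 (Pvalb, Vip and Gad2) had an unadjusted p under 0.05, where 9.69% of all identifiers did. Pvalb passed it without the filter on low counts (edgeR FDR = 0.0128, 1.71% of identifiers called) and without 28 months sample 2 (edgeR FDR = 0.00813, 1.31% called). As labelled, 0 of the 6 passed in any comparison (edgeR FDR of at least 0.997). Of all identifiers, 0, 0.111 and 0.0563% were then called in the 3 comparisons and 0.00611% in the joint test. At 6 vs. 12 months and in the joint test the same counts stood at both 6 and 12 months, which limits what these fits could call.

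**Figure D2:**
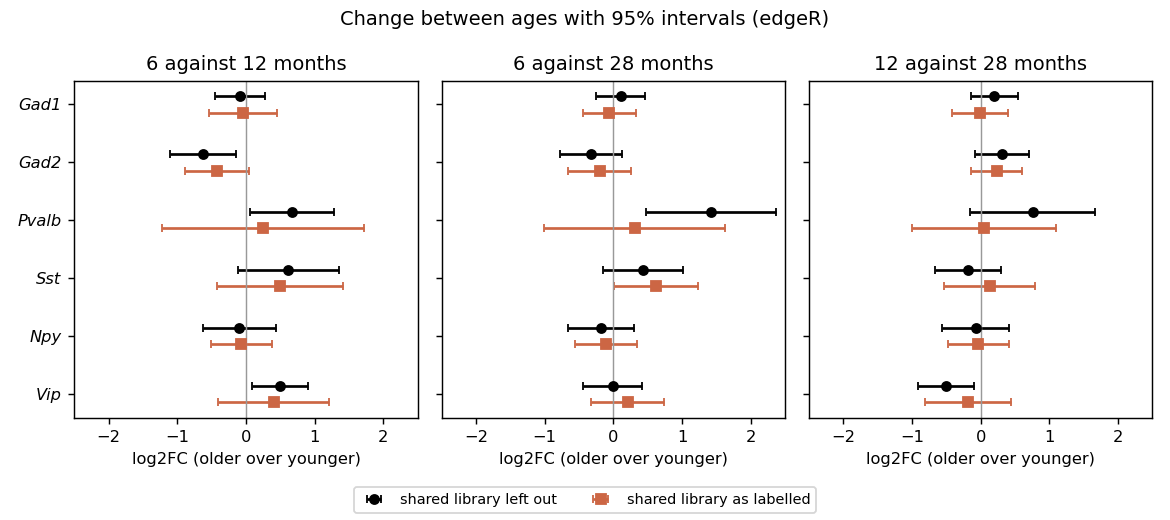
Change of each gene between ages as log2FC (horizontal axis, older over younger) with 95% intervals from edgeR. Black circles are the fits on libraries of settled age and orange squares the fits with the shared library as labelled. Pvalb moves most between the fits, from 1.43 to 0.31 at 6 vs. 28 months.

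The size of change that could be seen depended on the spread within an age. The moderated coefficient of biological variation in edgeR was 32.1% for Pvalb, 20.4% for Sst, 17.3% for Gad2, 16.1% for Vip, 15.0% for Gad1 and 14.2% for Npy. Counting error alone gives 7.07% for Pvalb at its mean of 200 reads and 12.6% for Npy at its mean of 62.7 reads. Among the 500 identifiers closest in level to each gene the median was from 14.7 to 16.3%. Pvalb lay above 98.0% of its 500, Sst above 92.8%, Gad2 above 86.2% and Vip above 76.0%. Gad1 and Npy lay above 35.8 and 13.0%.

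**Figure D3:**
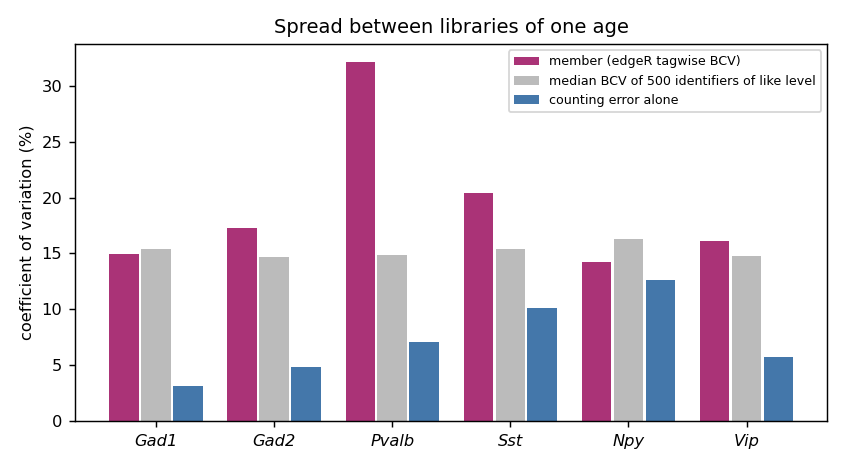
Spread of each gene between libraries of the same age, as a coefficient of variation in percent (vertical axis from 0). Purple bars are the edgeR estimate for the gene, grey bars the median of the 500 identifiers closest in level, and blue bars the counting error at the gene's mean count, which is not included in the other bars. Only the bar of Pvalb, 32.1%, is over 25%.

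Within a library, the reads of each interneuron marker were set against the sum of Gad1 and Gad2 reads, which came to between 1060 and 2019. Pvalb gave 5.79 and 8.75 reads per 100 Gad1 plus Gad2 reads at 6 months, 10.5 and 15.9 at 12 months, 29.7, 6.85 and 22.6 at 28 months, and 27.8 in the shared library. The order of the libraries was nearly that of the normalized counts, and 28 months sample 2 again lay among the 6 months libraries. Vip gave 14.1 and 22.6 at 6 months, 36.5 and 24.5 at 12 months, 21.0, 19.2 and 14.04 at 28 months, and 8.83 in the shared library. Sst gave 5.84 and 3.84 at 6 months, 12.1 and 6.61 at 12 months, 6.45 to 7.13 at 28 months, and 2.68 in the shared library. Both 12 months libraries thus had more Sst per Gad1 plus Gad2 read than both at 6 months, which was not so for its normalized counts. The counting intervals of 12 months sample 2, 5.26 to 8.22, and of 6 months sample 1, 4.81 to 7.04, overlapped. Per 100 Gad1 reads alone the order did not hold, with 8.99 in 12 months sample 2 and 9.17 in 6 months sample 1. Per 100 Gad2 reads alone it held, with 25 and 16.1 in these libraries. Npy lay between 3.23, in the shared library, and 4.94, in 12 months sample 2.

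Between libraries, the shares of Pvalb and Vip among the reads of the 4 markers differed more, in percentage points, than those of Sst and Npy. Sst took 6.29 to 19.4% and Npy 6.87 to 14.3%, against 20.7 to 57.2% for Vip. This order does not hold relative to the size of each share. Of the summed reads on Pvalb, Sst, Npy and Vip, Pvalb took 16.4 to 22.04% in 6 months samples 1 and 3, 12 months sample 1 and 28 months sample 2. It took 30.6% in 12 months sample 2, 48.0% in 28 months sample 1, 48.2% in 28 months sample 3, and 65.4% in the shared library. Vip took 47.0 to 57.2% in the 5 libraries where Pvalb was at or below 30.6%. In the 3 others Vip took 34.0, 29.9 and 20.7%. The 4 shares of a library are parts of the same sum, so a higher share of Pvalb lowers what is left for the others. Vip stood at 37.9 and 38.4 CPM in 28 months samples 1 and 2, where its shares were 34.0 and 51.9%. These are shares of reads and not of cells.

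**Figure D4:**
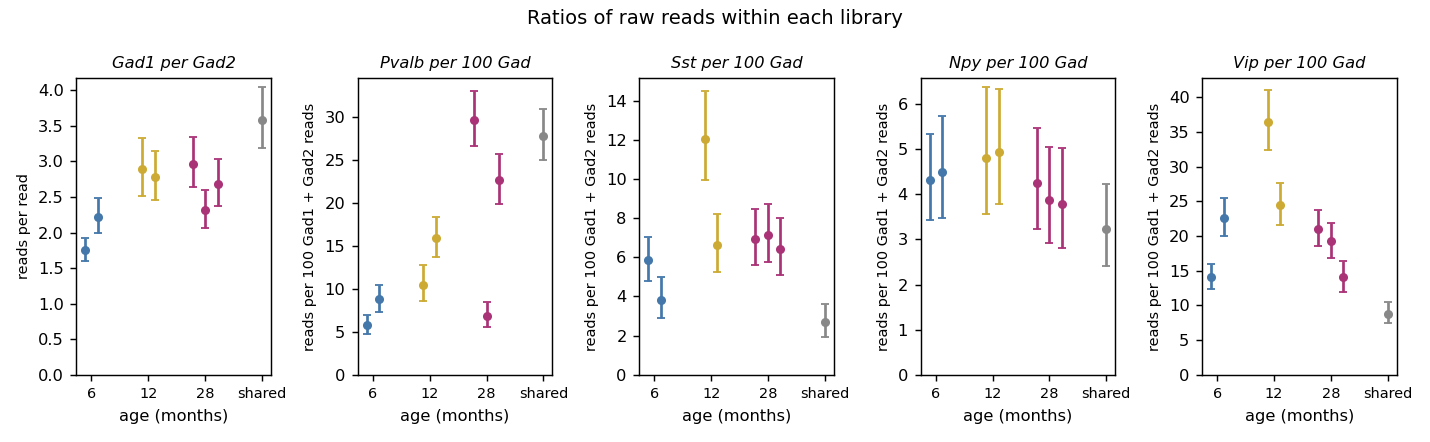
Reads of Gad1 per Gad2 read, and reads of each marker per 100 Gad1 plus Gad2 reads (vertical axes from 0), in each of the 8 distinct libraries by age. Bars are 95% intervals for counting error. The Gad1 to Gad2 ratio is below 2.3 in both 6 months libraries, and Vip is lowest in the shared library, at 8.83.

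Over the 8 distinct libraries, a single pair of the 6 genes had a correlation that passed. Of the 15 pairs, Pearson's r of log2 CPM ranged from −0.92 to 0.66, and 9 were below 0. The pair with the closest relation ran in opposite directions. Gad1 and Vip had r = −0.92 (exact permutation p = 0.00179, adjusted over the 15 pairs 0.0268, n = 8) and Spearman's rho = −0.95 (exact permutation p = 0.00114, adjusted 0.0171). Without the libraries farthest from the median of Gad1, the shared library and 12 months sample 1, r was −0.61 (exact permutation p = 0.190, n = 6), so the p-value rests on those libraries, whose removal also narrows the range of Gad1. With any 1 library of settled age left out r lay between −0.96 and −0.88, and without the shared library it was −0.82. Of the deviations from the mean of each age in the 7 libraries of settled age, r was −0.84, from fewer independent points than libraries and not tested. Since every library is scaled to its own total, the values of a pair are not free of each other's scaling. The permutations treat the 8 libraries as exchangeable although they differ in age, so these p-values do not separate age from other variation between libraries. Among 7966 identifiers, mainly those with a mean of at least 50 reads, Vip ranked 17 from the lowest r with Gad1.

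No other pair passed. The highest r was 0.66 for Gad2 and Npy (exact permutation p = 0.0811, adjusted 0.394, n = 8), with rho of 0.55 (exact permutation p = 0.171, adjusted 0.513). It fell to −0.26 without 6 months sample 1 and 12 months sample 1, and was 0.81 within ages. Gad1 and Gad2, the pair of enzymes, had r = 0.30 and rho = 0.55 (exact permutation p = 0.454 and 0.171, adjusted 0.619 and 0.513, n = 8). Within ages the r of this pair was 0.86 over 7 libraries. Sst and Vip had r = 0.62 and rho = 0.33 (exact permutation p = 0.105 and 0.428, adjusted 0.394 and 0.693, n = 8), and −0.11 within ages. Gad1 and Npy had r = −0.01 and rho = −0.05 (exact permutation p = 0.976 and 0.935, adjusted 0.976 and 0.935, n = 8), and 0.94 within ages. The within-age values rest on 7 libraries and were not tested.

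**Figure D5:**
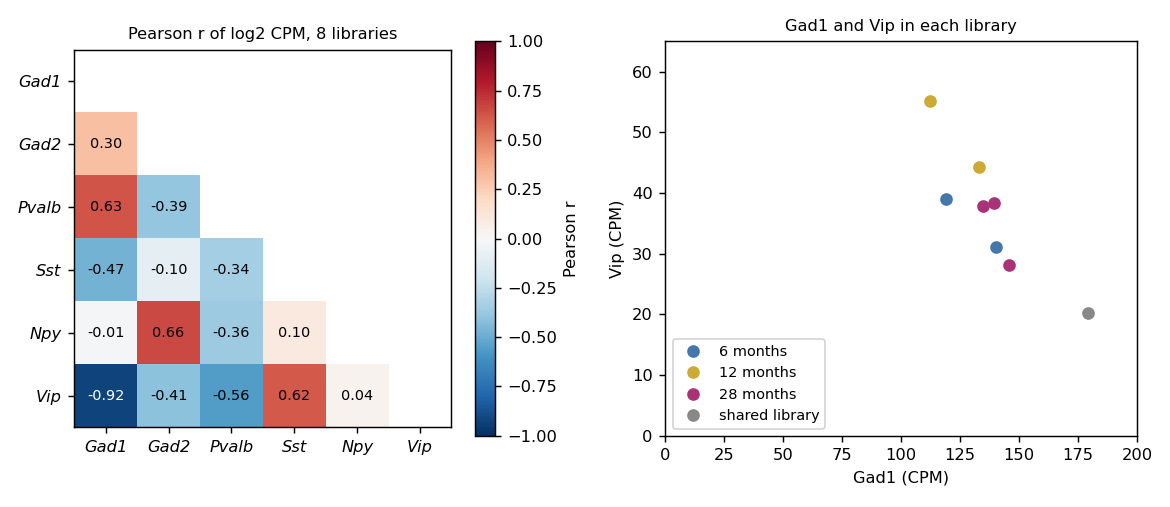
Left, Pearson's r of log2 CPM for each pair of genes over the 8 distinct libraries. Right, Gad1 against Vip in CPM, both axes from 0, each point a library coloured by age. Vip falls from 55.2 to 20.2 CPM as Gad1 goes from 112 to 179 CPM, and both of those ends are single libraries.

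A symbol could be paired with 116 of the 7966 identifiers that had a mean of at least 50 reads. Among these 116, the pattern most like that of Gad1 over the 8 libraries was Usp40 (r = 0.93), and that most like Pvalb was Etv1 (r = 0.94), a transcription factor. For Vip it was Ppp2r2b (r = 0.89), a regulatory subunit of protein phosphatase, and for Sst it was Gucy1a2 (r = 0.79), a subunit of soluble guanylate cyclase. For Gad2 it was D3ZWX7_RAT (r = 0.90) and for Npy SNORD16 (r = 0.72), a small nucleolar RNA. These correlations are descriptions over libraries that share ages and scaling, and each of the 6 genes had at least 18 unnamed identifiers with a higher r.

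Some markers of other cells moved with age in the same libraries. Of 39 such marker symbols, 13 could be paired with an identifier. The pairing came from the study's supplementary lists, which mainly hold genes and transcripts reported to differ with age in these same data. The movement of the paired markers was therefore partly fixed by how they could be chosen, and the unpaired markers have no value here. Gfap, of astrocytes, stood at 72.4 and 89.1 CPM at 6 months, 155 and 145 CPM at 12 months, 52.4 to 77.0 CPM at 28 months and 151 CPM in the shared library. It rose at 6 vs. 12 months (log2FC 0.88, edgeR FDR = 0.0329) and fell at 12 vs. 28 months (log2FC −1.29, edgeR FDR = 0.0216). In libraries of settled age Gfap was thus highest at 12 months, where Vip was highest. In the shared library, with Gfap near its 12 months level, Vip was at its lowest, 20.2 CPM. As labelled, Gfap did not pass at 6 vs. 12 months (log2FC 0.53, edgeR FDR = 0.997) but passed at 12 vs. 28 months (log2FC −1.30, edgeR FDR = 0.0330). The 3 microglial markers paired (Aif1, Cd74 and Fcgr3a) summed to 41.6 and 46.1 CPM at 12 months against 10.8 to 12.7 CPM at 6 months and 10.5 to 16.2 CPM at 28 months. The shared library had 30.3 CPM. Of the 12 months sums, Cd74 gave 28.4 and 35.9 CPM. At 6 vs. 12 months Aif1 and Fcgr3a did not pass (log2FC 0.71 and 1.12, edgeR FDR = 0.237 and 0.517). At 6 vs. 28 months Aif1 (log2FC −0.90) and Cd74 (0.82) went in opposite directions and did not pass (edgeR FDR = 0.585 and 0.673). At 12 vs. 28 months Aif1 passed (log2FC −1.60, edgeR FDR = 0.0444), though not as labelled (0.363), and Fcgr3a did not (0.537). Cd74, an MHC class II chaperone, rose 6.28-fold at 6 vs. 12 months (edgeR FDR = 0.000601) and fell at 12 vs. 28 months (log2FC −1.82, edgeR FDR = 0.0148). As labelled, Cd74 was 2.66-fold higher at 6 vs. 12 months and did not pass (edgeR FDR = 0.997), and passed at 12 vs. 28 months (log2FC −1.69, edgeR FDR = 0.0422). The 4 plasma and red cell markers summed to 48.1 and 56.2 CPM at 12 months, 20.5 to 31.9 CPM at the other ages and 77.8 CPM in the shared library. Of these sums the globin LOC689064 gave 33.4 and 50.5 CPM at 12 months and 64.8 CPM in the shared library. At 6 vs. 12 months LOC689064 and Gc did not pass (edgeR FDR = 0.306 and 0.219). Alb and Apob passed (0.0141 and 0.0324), from 2 or 3 reads in each 6 months library, though not as labelled (0.997 for both). At 12 vs. 28 months Alb, Apob, Gc and LOC689064 did not pass (edgeR FDR = 0.142, 0.245, 0.719 and 0.259).

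Of the 3 general neuronal markers paired (Gria2, Scg2 and Nptxr), 0 passed in any comparison by the edgeR quasi-likelihood test. At an unadjusted p under 0.05 in edgeR there was 1 (Nptxr) at 6 vs. 12 months, where 13.6% of all identifiers were. There were 0 at 6 vs. 28 and 12 vs. 28 months, where 6.45 and 7.68% were. The 3 summed to between 916 and 1199 CPM in every library, with 1127 and 916 CPM at 12 months. Gria2 alone gave 762 to 961 CPM of this. Nptxr stood at 129 and 117 CPM at 6 months, 99.2 and 80.7 CPM at 12 months, 101 to 175 CPM at 28 months and 73.4 CPM in the shared library. Its log2FC was −0.46 at 6 vs. 12 months (edgeR FDR = 0.278) and 0.51 at 12 vs. 28 months (edgeR FDR = 0.653). Gria2, an AMPA receptor subunit, had a log2FC between −0.03 and 0.13 in the 3 comparisons. Tph1, the pineal marker, had 147 reads in the shared library and 0 to 8 reads in each of the others. The part of these other cells in the levels of the 6 genes was not tested.

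Of 52 further symbols of GABA transport, GABA receptors, peptide receptors and other interneuron genes, 0 could be paired with an identifier here, so their values are not analysed here.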

How the data were processed

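The authors mapped SOLiD reads to the Ensembl release 65 rat genome (RGSC 3.4) with Bowtie and used HTSeq to count reads on genes. The deposited values are raw counts, not normalized, and 5 rows of reads on no gene that were left out here. Program versions and the strand setting are not given in the sources used here, so reads of overlapping or antisense genes cannot be told apart. Reads called ambiguous were 0.0356 to 0.0794% of the mapped reads.

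Identifiers with at least 5 reads in at least 1 library compared were tested with the quasi-likelihood test of edgeR 4.0.16 (R 4.3.3, TMM), with a separate fit for each comparison and an FDR threshold of 0.05 (Benjamini-Hochberg, all identifiers). All 6 genes passed this filter. Standard errors are the log2FC over the square root of the F statistic. Log2 CPM for correlations used a prior count of 2. The alternatives were the shared library at either or both ages, RLE and upper quartile scaling, the most abundant identifier left out, no filter, at least 10 reads in every library, DESeq2 1.42.0, the exact test, 1 fit of 3 ages, and each library left out. The exact test with the shared library as labelled, and permutation tests of the pairs (Python 3.11.15), were chosen after seeing the data. Fits were tested on simulated data.

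The genes and lists were chosen with earlier results of these data known. Named genes are the 6 genes, the cell type markers with a paired symbol (1 of them is not reported here), and for each of the 6 the paired identifier of highest r. Symbols came from the study's supplementary tables, which pair 143 identifiers and mainly list genes and transcripts reported to differ with age. The RefSeq gene table pairs 0. Labels do not say how the rats were paired into pools, so p-values measure the spread between pools. Intervals on counts (95%, Poisson or binomial) cover counting error only.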

Additional observations from a re-analysis of the deposited data

How the results depend on the processing

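Of 276 recomputed log2FC values of the 6 genes, 247 kept their direction and stayed above an FDR of 0.05, 9 kept it and passed, and 20 changed sign, all 20 for values between −0.45 and 0.21 with an edgeR or exact test FDR of at least 0.88. The count of genes called, 0 in each comparison, became 1 (Pvalb) at 6 vs. 28 months with the exact test and with no filter, and 1 (Pvalb) in the joint test with no filter. With 1 library left out it ranged from 0 to 3 at 6 vs. 12 months, where these fits called 360 to 883 of all identifiers, and from 0 to 1 in the others, where they called 0 to 137 at 6 vs. 28, 0 to 142 at 12 vs. 28 months and 54 to 251 in the joint test. A lone library is then assumed to vary like the rest. No paired analysis was possible because the labels give no number that pairs libraries between ages.

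Signs changed as follows. Gad1 at 6 vs. 12 months was 0.11 with the shared library at 12 months alone, and Pvalb was −0.45 with it at 6 months alone. As labelled, by the quasi-likelihood and exact tests alike, Gad1 was −0.060 at 6 vs. 28 and −0.013 at 12 vs. 28 months, Vip 0.21 at 6 vs. 28 months and Sst 0.13 at 12 vs. 28 months. Vip was 0.0091 at 6 vs. 28 months with upper quartile scaling. With each library left out, Gad1 ranged from −0.21 to 0.043 at 6 vs. 12 and −0.0017 to 0.23 at 6 vs. 28 months, Npy from −0.25 to 0.059 at 6 vs. 12 and −0.21 to 0.083 at 12 vs. 28 months, Vip from −0.16 to 0.17 at 6 vs. 28 months and Sst from −0.46 to 0.15 at 12 vs. 28 months.

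With Gad2 alone as the denominator, the log2 ratio of Sst at 6 vs. 12 months moved from 0.95 to 1.34, and those of Npy from 0.15, −0.15 and −0.30 to 0.50, 0.14 and −0.36 at 6 vs. 12, 6 vs. 28 and 12 vs. 28 months. With Gad1 alone, that of Sst at 6 vs. 12 months was 0.78. Those of Npy were then −0.011 at 6 vs. 12 and −0.28 at 6 vs. 28 months. As labelled, the mean Gad1 to Gad2 ratio was 2.52 at 6 months and 3.09 at 12 months.

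Over all identifiers, 191 were called at 6 vs. 12, 33 at 6 vs. 28 and 19 at 12 vs. 28 months. The exact test called 462, 138 and 128, DESeq2 240, 72 and 82, no filter 112, 199 and 139, and the as-labelled fit 0, 18 and 9. At 6 vs. 12 months the as-labelled fit holds the same counts in both groups, so its count of 0 is no independent check. Causes of the differences between the other settings were not tested.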
